A study of Mus musculus with 8 samples.

Results

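The nuclear genes of the mitochondrial respiratory chain and ATP synthase were followed across 8 mouse liver RNA-seq libraries. They were taken by name: all genes of the deposited count table whose symbol begins with Nduf, Uqcr or Atp5, is Sdha, Sdhb, Sdhc or Sdhd, or begins with Cox, a digit between 4 and 8 and a further letter. In the annotation 107 genes had such a name, and 97 of them were among the 23006 genes of the table. Of these 97, 90 had enough counts to be tested. The 7 that did not were the pseudogenes Atp5l-ps1, Atp5l2-ps, Ndufs6b, Ndufa11b and Ndufab1-ps and the tissue isoforms Cox7b2 and Cox4i2, with 0 to 8 counts in any library. Atp5g2, 1 of 3 genes for the c subunit of ATP synthase, was not analysed here. The genes were selected on their names and not on a measured value, but the family was singled out with earlier results of the same libraries known, so counts over it are a description.

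All mice were wild type, and there were 2 libraries per group. The SLIT2+APAP group received SLIT2, a secreted ligand of ROBO receptors, and acetaminophen (APAP). The doses were 2 µg of SLIT2 per mouse for 3 days and 400 mg/kg of APAP, as in the groups given either alone. The APAP group received saline and APAP at 400 mg/kg, a dose that injures hepatocytes. The SLIT2 group received SLIT2 only, as intraperitoneal doses of 2 µg per mouse for 3 days, and the control group saline only. Livers of the groups given APAP were collected 24 h after it. The labels give neither sex nor age. They number the APAP libraries 3 and 4 and the others 1 and 2, and do not state that each library is a mouse of its own. The p-values therefore measure only how far these samples spread, which may be technical.

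The respiratory chain sits in the inner mitochondrial membrane. Complex I takes electrons from NADH and complex II from succinate, complex III passes them to cytochrome c, and complex IV hands them to oxygen, while complexes I, III and IV pump protons. ATP synthase, complex V, makes ATP as the protons flow back. Most subunits are encoded in the nucleus and a small number in mitochondrial DNA, so each complex other than II is built from both genomes with the help of assembly factors. Liver is rich in mitochondria, and injury by APAP is known to involve binding of its reactive metabolite to mitochondrial proteins.

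By role, the 97 genes comprised 7 core and 29 accessory subunits of complex I, 8 complex I assembly factors (Ndufaf1 to Ndufaf8), 4 subunits of complex II, 8 of complex III, 11 of complex IV as made in liver, 15 of complex V, 6 complex IV isoforms of other tissues, 6 pseudogenes, Cox7a2l, Ndufa4l2 and Atp5s. The 74 liver subunits of complexes I to V are called the subunits below. Ndufa4 was counted with complex IV, where its protein resides despite the name.

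Promoters of 6 genes that the results turn on are shown. Ndufv1, Cox5a and Atp5b were lower in SLIT2+APAP than in APAP, with the smallest p among called genes of complexes I, IV and V. Ndufb4 was the subunit with the largest positive difference in that comparison. Atp5g3 and Sdhd were reduced and held matches to 2 and 3 of the motifs searched. Sequences are from RefSeq on GRCm38.p6, run 5′ to 3′ on the gene's strand from 250 bases before the transcript start to 50 bases after it, and carry in capitals any match on either strand to 4 motifs. The motif for NRF-1 was GCGCA, any base and GCGC, and that for ETS factors such as GABP was CCGGAAG. That for YY1 was AAGATGG followed by CGGC, and that for the oestrogen-related receptors (ERR) was TCAAGGTCA. The first 3 promoters held no match.
Ndufv1, chr19:4012706-4013005, minus strand: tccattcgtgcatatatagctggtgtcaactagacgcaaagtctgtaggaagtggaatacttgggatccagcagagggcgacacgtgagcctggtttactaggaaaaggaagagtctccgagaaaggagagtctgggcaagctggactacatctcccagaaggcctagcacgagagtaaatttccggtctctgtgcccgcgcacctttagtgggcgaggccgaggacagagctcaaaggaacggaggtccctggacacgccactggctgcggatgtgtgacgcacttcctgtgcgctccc
Cox5a, chr9:57520982-57521281, plus strand: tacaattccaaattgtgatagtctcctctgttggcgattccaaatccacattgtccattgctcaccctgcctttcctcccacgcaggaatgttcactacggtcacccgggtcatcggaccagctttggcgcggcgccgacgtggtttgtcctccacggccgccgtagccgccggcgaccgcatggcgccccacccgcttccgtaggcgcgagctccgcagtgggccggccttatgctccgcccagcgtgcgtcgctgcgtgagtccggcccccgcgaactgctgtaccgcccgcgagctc
Atp5b, chr10:128083057-128083356, plus strand: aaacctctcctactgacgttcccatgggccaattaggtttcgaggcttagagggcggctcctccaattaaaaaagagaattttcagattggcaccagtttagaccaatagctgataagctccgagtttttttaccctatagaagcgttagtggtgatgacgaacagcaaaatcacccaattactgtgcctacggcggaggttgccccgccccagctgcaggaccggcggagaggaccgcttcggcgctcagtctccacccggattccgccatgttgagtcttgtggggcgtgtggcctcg
Ndufb4, chr16:37654319-37654618, minus strand, 3 NRF-1 matches: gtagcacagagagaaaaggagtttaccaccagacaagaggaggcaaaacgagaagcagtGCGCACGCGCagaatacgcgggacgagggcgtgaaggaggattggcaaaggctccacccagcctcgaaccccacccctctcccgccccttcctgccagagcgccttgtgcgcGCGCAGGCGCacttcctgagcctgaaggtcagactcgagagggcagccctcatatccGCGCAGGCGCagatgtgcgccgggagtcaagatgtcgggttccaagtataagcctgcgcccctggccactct
Atp5g3, chr2:73911277-73911576, minus strand, 1 ERR and 1 NRF-1 match: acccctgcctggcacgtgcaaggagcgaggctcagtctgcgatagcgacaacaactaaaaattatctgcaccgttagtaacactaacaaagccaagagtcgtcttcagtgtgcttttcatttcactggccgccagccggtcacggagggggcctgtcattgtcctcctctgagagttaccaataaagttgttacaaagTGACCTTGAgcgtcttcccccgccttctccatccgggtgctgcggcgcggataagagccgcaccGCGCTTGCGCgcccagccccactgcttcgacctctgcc
Sdhd, chr9:50603800-50604099, minus strand, 1 NRF-1, 1 ETS and 1 ERR match: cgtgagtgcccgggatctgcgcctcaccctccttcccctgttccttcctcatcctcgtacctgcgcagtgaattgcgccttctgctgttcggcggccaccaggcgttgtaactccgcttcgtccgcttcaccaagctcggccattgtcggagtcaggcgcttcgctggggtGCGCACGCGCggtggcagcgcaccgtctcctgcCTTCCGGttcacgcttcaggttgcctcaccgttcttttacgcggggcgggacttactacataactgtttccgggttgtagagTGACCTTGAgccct

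A promoter was at hand for 72 of the 90 tested genes and for 12148 of all genes tested. NRF-1 letters were found in 17 of the 72 (23.6%), against 9.11% of all promoters. ETS letters were found in 17 (23.6%), against 15.9%, and YY1 letters in 5 (6.94%), against 1.41%. ERR letters were found in 2 (2.78%), against 0.28%, and those were the promoters of Atp5g3 and Sdhd. No promoter held motifs that overlapped one another. A match describes these letters in this window, and its absence says only that they are not there.

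Total counts ran from 60.8 to 100.5 M per library, where 1 M is 1000000. The share taken by the 13 mitochondrially encoded protein genes differed between groups, at 25.1% and 30.3% in SLIT2+APAP, 14.9% and 13.4% in APAP, 60.2% and 69.0% in SLIT2, and 16% and 17.3% in control. The SLIT2 libraries thus stood apart and kept only 25.1 and 18.9 M counts for all other genes, against at least 55.2 M in every other library. Counts of noncoding genes made up 1.23% and 1.72% of those other counts in SLIT2 and 0.189% to 0.421% elsewhere. In CPM, counts per 1000000 after TMM scaling (a factor per library that assumes most genes are unchanged), 8 hepatocyte markers were abundant in every library, with summed levels of 73814 to 76273 in SLIT2+APAP, 86343 to 109464 in APAP, 8829 to 15865 in SLIT2 and 59152 to 80156 in control. Of these 8, 7 fell with SLIT2 relative to control, where 27.6% of all genes were called lower.

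**Figure D1:**
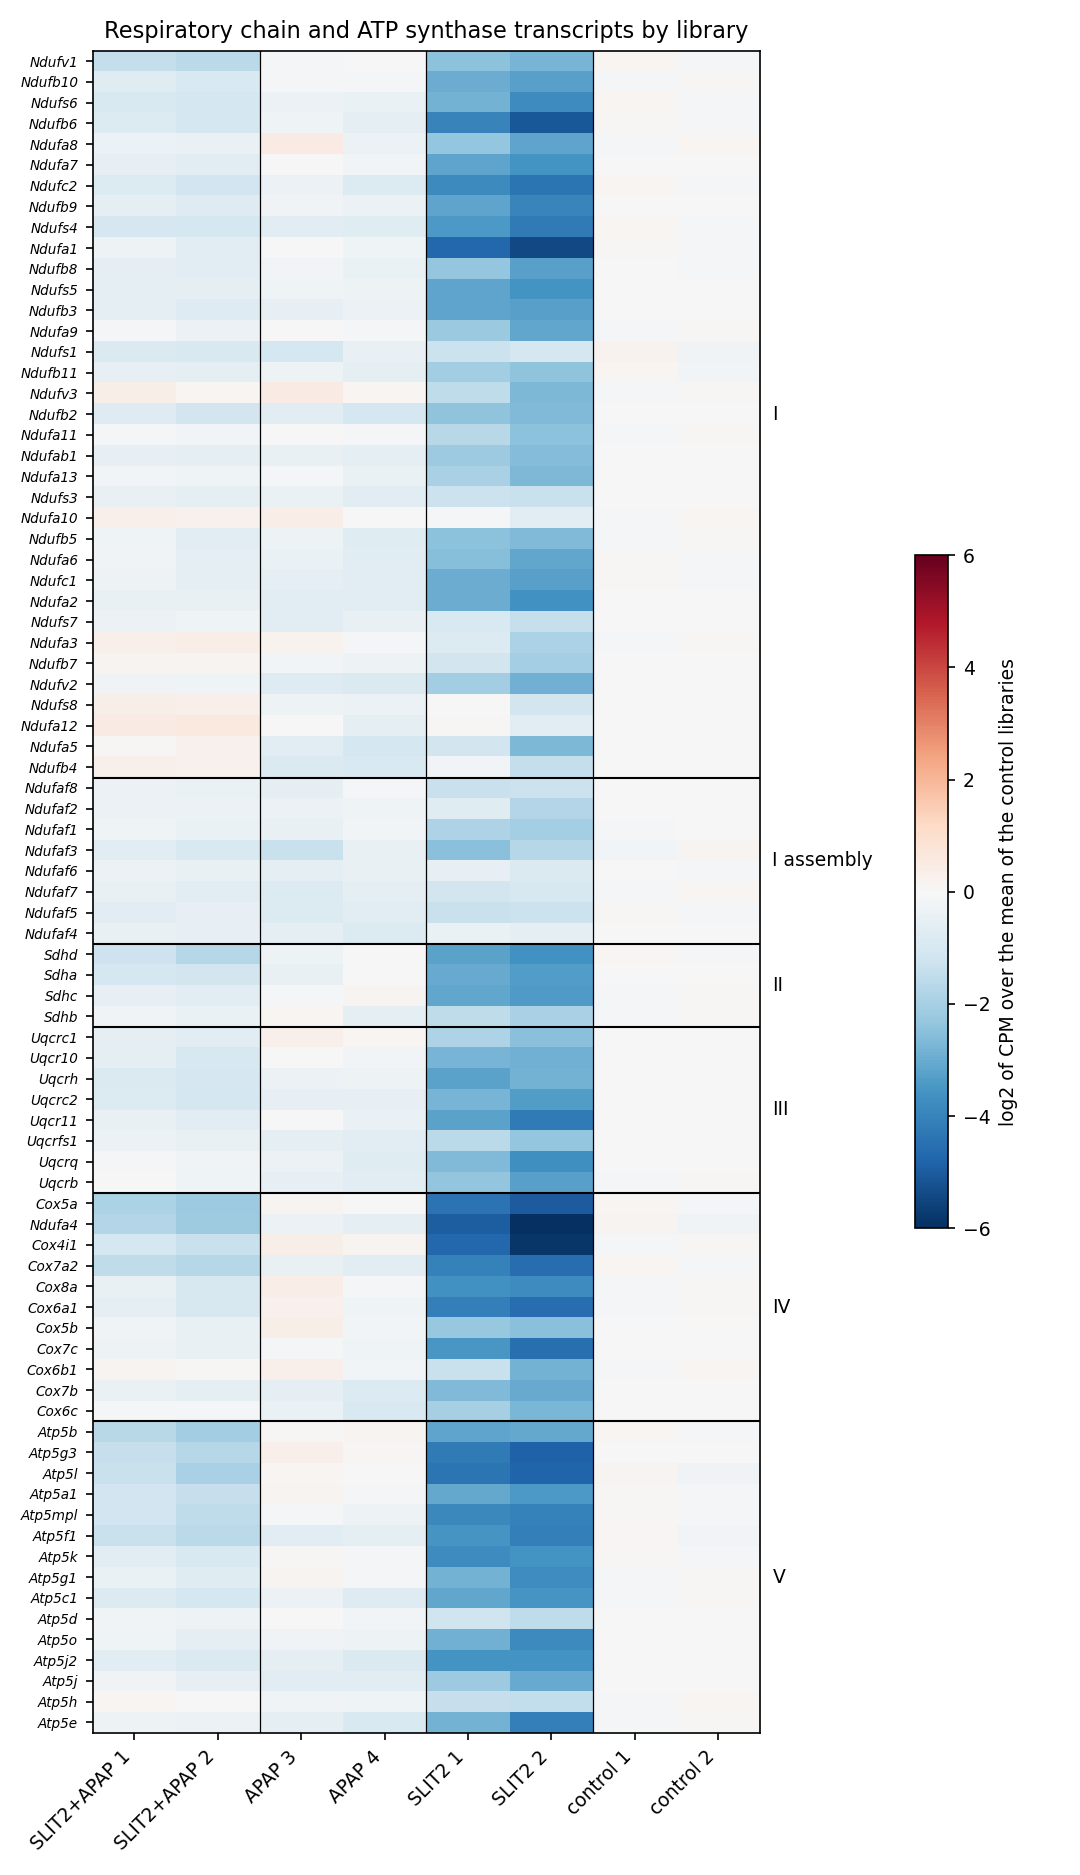
Each row is a subunit or complex I assembly factor whose values are reported here, grouped by complex and sorted by its SLIT2+APAP over APAP fold change, and each column a library. The colour gives log2 of CPM over the control mean, blue for lower and red for higher, and the SLIT2 columns are blue in nearly every row while in the SLIT2+APAP columns blue is deepest in the upper rows of each of complexes I, II, IV and V.

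The first comparison asked how SLIT2 altered these transcripts in APAP-treated liver. SLIT2+APAP livers had less RNA than APAP livers of 15 of the 90 tested genes and more of none, at an adjusted p under 0.05 in edgeR's quasi-likelihood test. Of all 16876 genes tested, 7.64% were called lower and 6.29% higher. The subunits were abundant, with a median of 174 CPM in control, against 4.2 CPM over all genes. Of the 1921 genes at 50 CPM or more in control, 13.2% were called lower. At an unadjusted p under 0.05 in edgeR's test, 23 of the 90 were lower and 4 higher. DESeq2 called 20 lower, the same 15 with Ndufb10, Uqcrc1, Uqcr10, Cox8a and Atp5f1, and 1, Ndufb4, higher. Among those called by edgeR were Ndufv1 of the complex I core, Sdha and Sdhd of complex II, Cox4i1, Cox5a, Ndufa4 and Cox7a2 of complex IV, the related Cox7a2l, and Atp5a1, Atp5b, Atp5g3, Atp5k, Atp5l and Atp5mpl of ATP synthase. None of the 29 accessory complex I subunits, the 8 assembly factors or the 8 complex III subunits was called by edgeR. In bulk tissue, fewer cells of a type and less RNA per cell cannot be told apart.

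The median log2 fold change was -0.14 over the 90 genes and -0.06 over all genes, so the family as a whole was little displaced. The fold changes differed among the subunits. Over the 74 subunits their standard deviation was 0.68 on the log2 scale, while the difference between the libraries of a group had a standard deviation of 0.15 in SLIT2+APAP and 0.24 in APAP. The middle 50% of their fold changes lay between -0.69 and 0.13, a narrower range than the -0.66 to 0.59 of all genes tested. By complex, the median log2 fold change was -0.77 in complex II (2 of 4 called lower), -0.78 in complex IV (4 of 11) and -0.61 in complex V (6 of 15). It was 0.02 in the complex I core (2 of 7), -0.08 in its accessory subunits and -0.39 in complex III, and 0.06 among assembly factors, whose values lay between -0.10 and 0.21.

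In complex I, the flavoprotein Ndufv1 carries the FMN that accepts electrons from NADH. Its level was 46.8 and 40.5 CPM in SLIT2+APAP and 116.0 and 124.0 CPM in APAP. The groups were well apart, with a log2 fold change of -1.46 ± 0.22 (SE; adjusted p = 0.00942, edgeR). Ndufv2, its partner in the same module, had 148.0 and 145.0 CPM in SLIT2+APAP and 102.0 and 94.5 CPM in APAP, a log2 fold change of 0.58 ± 0.27 that was not called (adjusted p = 0.179, edgeR). Both partners had non-overlapping groups, in opposite directions, but only Ndufv1 was called. With 2 libraries per group, groups can readily separate without a difference between treatments.

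Among the accessory subunits, the extremes were Ndufb10, with 58.9 and 51.5 CPM against 87.9 and 91.8 CPM in APAP (log2 -0.70, adjusted p = 0.0543, edgeR), and Ndufb4, with 121.0 and 119.0 CPM against 53.9 and 52.6 CPM in APAP (log2 1.17, adjusted p = 0.0676, edgeR). Neither was called by edgeR as fitted here, and DESeq2 called both.

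Complex II is encoded wholly in the nucleus. Sdhd, a membrane anchor, had 50.3 and 36.2 CPM in SLIT2+APAP and 95.5 and 121.0 CPM in APAP, and the groups did not overlap (log2 fold change -1.33 ± 0.26, adjusted p = 0.0195, edgeR). The flavoprotein Sdha had 115.0 and 112.0 CPM in SLIT2+APAP and 177.0 and 240.5 CPM in APAP (log2 -0.88 ± 0.23, adjusted p = 0.0428, edgeR). The iron-sulphur protein Sdhb had 149.0 and 132.0 CPM in SLIT2+APAP and 191.0 and 118.0 CPM in APAP. Its APAP libraries spanned both SLIT2+APAP libraries, and it was not called (log2 -0.14). The other anchor, Sdhc, had a log2 fold change of -0.66 (adjusted p = 0.0736, edgeR).

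Complex III held no subunit called by edgeR, while DESeq2 called Uqcrc1 and Uqcr10 lower. The core protein Uqcrc1 came nearest, with 123.0 and 115.0 CPM in SLIT2+APAP and 230.1 and 204.0 CPM in APAP (log2 -0.86, adjusted p = 0.0578, edgeR). Uqcrc2, the other core protein, had a log2 fold change of -0.45, the Rieske protein Uqcrfs1 one of 0.21 and Uqcrb one of 0.44.

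In complex IV, Cox5a showed the largest fall of the family. Its level was 41.8 and 33.7 CPM in SLIT2+APAP and 175.0 and 152.0 CPM in APAP (log2 fold change -2.12 ± 0.26, adjusted p = 0.00605, edgeR). Cox4i1, which with Cox5a joins the early assembly of the catalytic core, had 188.0 and 154.0 CPM in SLIT2+APAP and 491.0 and 427.0 CPM in APAP (log2 -1.42 ± 0.36, adjusted p = 0.0391, edgeR). For both genes every SLIT2+APAP library lay below every APAP library.

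Ndufa4 had 129.0 and 99.8 CPM in SLIT2+APAP and 351.0 and 301.0 CPM in APAP, with a log2 fold change of -1.51 ± 0.37. Cox7a2, the ubiquitous isoform of subunit 7a, had 81.8 and 71.5 CPM in SLIT2+APAP and 174.0 and 152.0 CPM in APAP, with -1.09 ± 0.24. Cox7a2l, a relative of Cox7a2 that joins complexes III and IV into supercomplexes, had 31.2 and 30.4 CPM in SLIT2+APAP and 107.0 and 79.4 CPM in APAP, with -1.60 ± 0.22. The groups of these 3 genes did not overlap, and the adjusted p was 0.0343, 0.0271 and 0.00721 for Ndufa4, Cox7a2 and Cox7a2l in edgeR's test.

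Other complex IV subunits did not pass edgeR's test, and DESeq2 called 1 of them, Cox8a, lower. Cox5b, the zinc-binding subunit, had 202.0 and 170.1 CPM in SLIT2+APAP and 302.0 and 213.0 CPM in APAP (log2 -0.47). Log2 fold changes were 0.03 for Cox6b1, 0.52 for Cox6c, 0.23 for Cox7b, -0.18 for Cox7c, -0.78 for Cox6a1 and -0.85 for Cox8a (adjusted p of Cox8a 0.0704, edgeR).

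ATP synthase held the most called subunits. Atp5b, the catalytic beta subunit, had 194.0 and 146.0 CPM in SLIT2+APAP and 655.0 and 679.0 CPM in APAP (log2 fold change -1.97 ± 0.25, adjusted p = 0.0062, edgeR). Atp5a1, the alpha subunit that alternates with beta in the head, had 288.0 and 246.0 CPM in SLIT2+APAP and 723.0 and 621.0 CPM in APAP (log2 -1.33 ± 0.25, adjusted p = 0.0158, edgeR). Both subunits of the catalytic head thus had clearly separate groups.

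Atp5g3, 1 of the genes for the proton-carrying c ring, had 154.0 and 126.0 CPM in SLIT2+APAP and 499.9 and 434.0 CPM in APAP (log2 -1.74 ± 0.27, adjusted p = 0.0108, edgeR). Atp5g1, whose mature protein is the same, had 138.0 and 111.0 CPM in SLIT2+APAP and 209.0 and 170.2 CPM in APAP, and was not called (log2 -0.61). The membrane subunits Atp5l, Atp5mpl and Atp5k had log2 fold changes of -1.64, -1.12 and -0.75, with adjusted p of 0.0134, 0.0173 and 0.047 in edgeR's test. None of these groups overlapped, those of the uncalled Atp5g1 included.

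The remaining 9 subunits of ATP synthase were not called by edgeR, and DESeq2 called 1 of them, Atp5f1, lower. The delta subunit Atp5d had 304.0 and 282.0 CPM in SLIT2+APAP and 357.0 and 308.0 CPM in APAP (log2 -0.18). The stalk subunit Atp5h had 282.0 and 254.0 CPM in SLIT2+APAP and 218.0 and 213.0 CPM in APAP (log2 0.32). The gamma subunit Atp5c1 had a log2 fold change of -0.38, Atp5o -0.14, Atp5j 0.31, Atp5e 0.42 and the stalk subunit Atp5f1 -0.84 (adjusted p of Atp5f1 0.0644, edgeR).

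**Figure D2:**
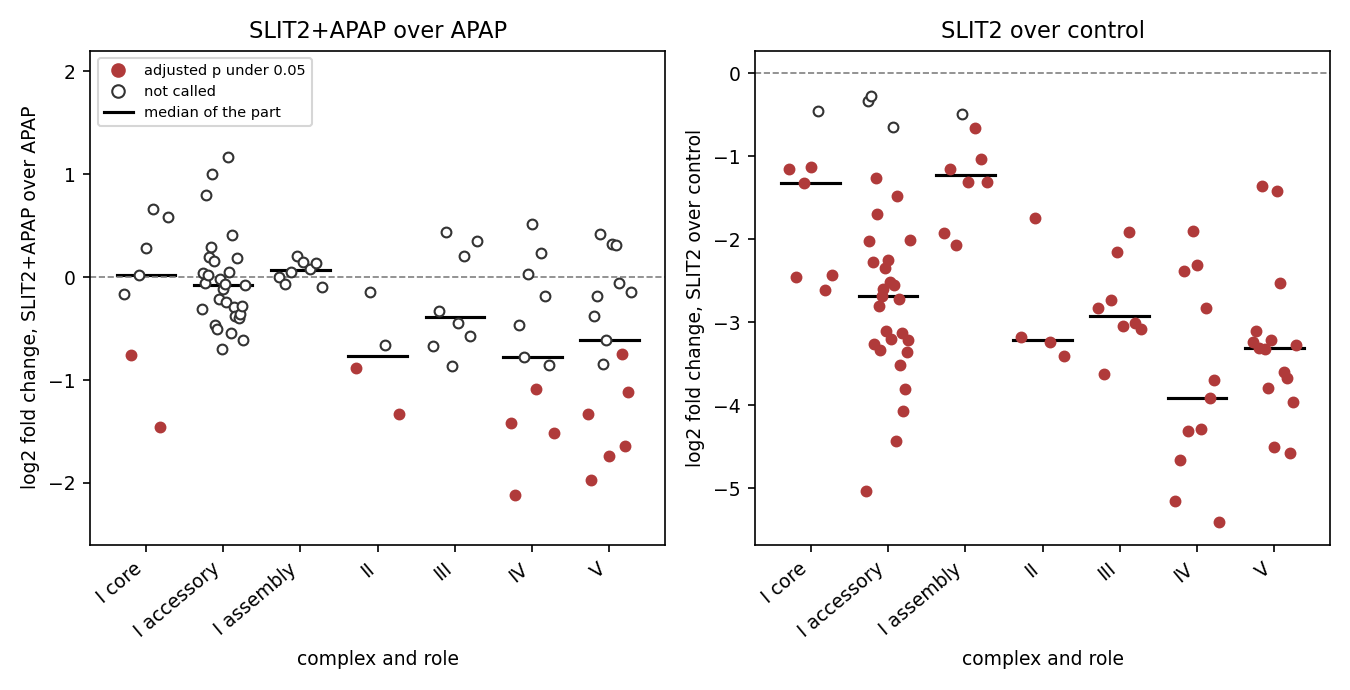
Log2 fold changes of the subunits and complex I assembly factors by complex and role, 1 point per gene, for SLIT2+APAP over APAP and SLIT2 over control. Filled points passed an adjusted p of 0.05 and black lines are medians, and with APAP the points of complexes II, IV and V reach down to -2.12 while assembly factors stay between -0.10 and 0.21.

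Fold changes depend on the scaling of libraries, whereas the ratio of the counts of a pair of genes within a library does not. Pairs of partners were set side by side after their values had been seen, as a description. The Ndufv1 to Ndufv2 ratio was 0.315 and 0.279 in SLIT2+APAP, 1.14 and 1.31 in APAP, 0.558 and 0.77 in SLIT2, and 0.761 and 0.679 in control. The Cox5a to Cox5b ratio was 0.207 and 0.198 in SLIT2+APAP, 0.58 and 0.714 in APAP, 0.148 and 0.118 in SLIT2, and 0.733 and 0.58 in control. In both pairs the SLIT2+APAP libraries lay below the APAP and control libraries.

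The Atp5b to Atp5d ratio was 0.639 and 0.519 in SLIT2+APAP, 1.84 and 2.21 in APAP, 0.452 and 0.62 in SLIT2, and 1.95 and 1.59 in control. For Atp5g3 to Atp5h it was 0.546 and 0.497 in SLIT2+APAP, 2.29 and 2.04 in APAP, 0.22 and 0.153 in SLIT2, and 1.77 and 1.44 in control. For Sdhd to Sdhb it was 0.339 and 0.275 in SLIT2+APAP, 0.5 and 1.02 in APAP, 0.214 and 0.213 in SLIT2, and 0.772 and 0.598 in control. Each of these ratios was lower in every library with SLIT2 than in every library without it.

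**Figure D3:**
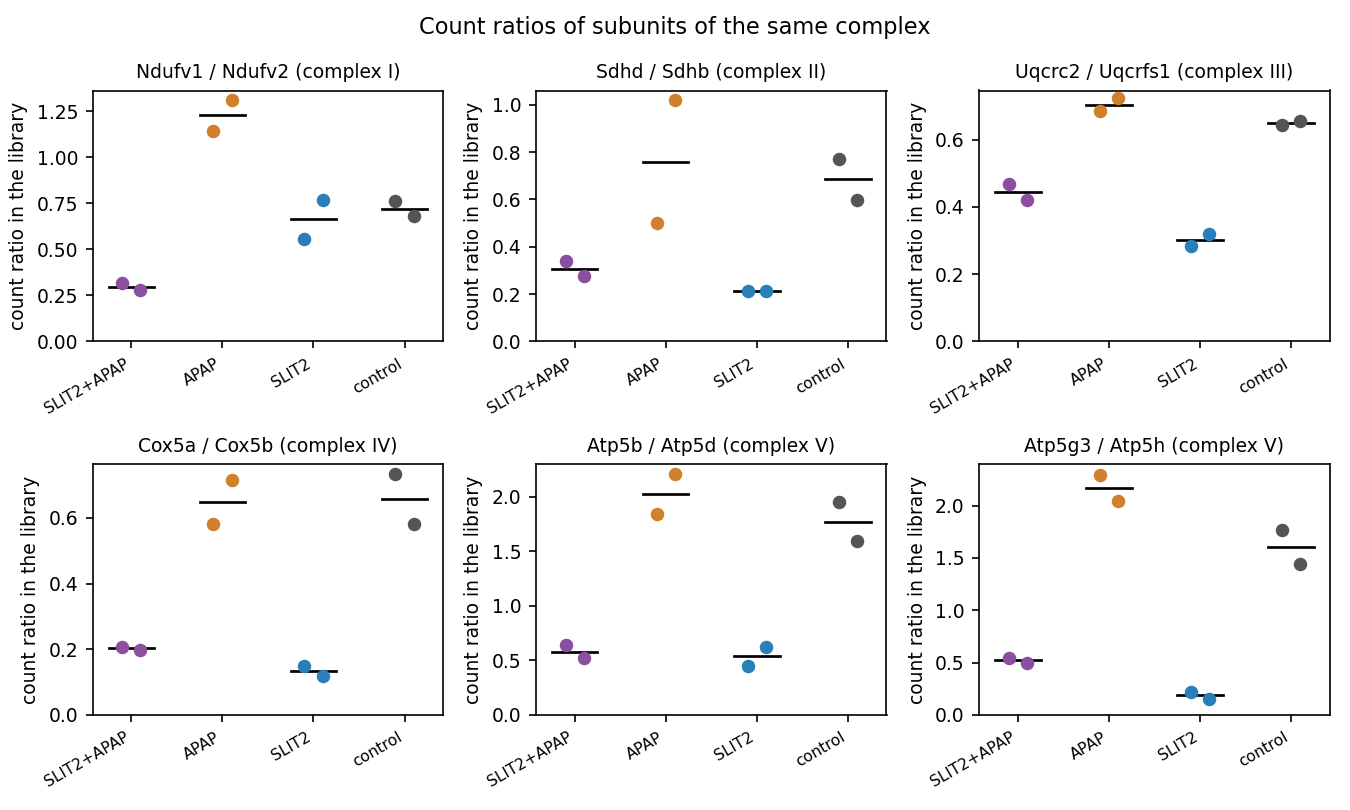
Ratios of counts between partners of a complex in each of the 8 libraries, on linear axes from 0, with 1 point per library and a line at the group mean. For Cox5a to Cox5b, Atp5b to Atp5d and Atp5g3 to Atp5h all 4 libraries with SLIT2 lie below the 4 without it, and for Ndufv1 to Ndufv2 the SLIT2+APAP libraries are lowest, at 0.315 and 0.279.

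The sum over the family was nearly level once the mitochondrially encoded genes were set aside. The 97 genes made up 1.55% and 1.60% of the remaining counts in SLIT2+APAP and 1.54% and 1.46% in APAP. Complex I subunits had 0.507% and 0.546% in SLIT2+APAP and 0.409% and 0.393% in APAP. Complex V had 0.398% and 0.390% in SLIT2+APAP and 0.475% and 0.469% in APAP. The complex I share was thus higher, and the complex V share lower, in both SLIT2+APAP libraries than in both APAP libraries.

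The mitochondrially encoded share moved with this comparison, and its part in the result was not tested. Among the 13 mitochondrially encoded genes, mt-Co3 (log2 1.32) and mt-Nd3 (log2 1.49) rose. When libraries were scaled by their total without these 13 genes, a choice made after seeing the data, 10 of the 15 stayed lower and 7 genes were called higher: Ndufa5, Ndufv2, Ndufb4, Ndufa12, Ndufs8, Cox6c and Atp5s. That scaling moved the median of all genes to 0.38 and of the family to 0.31. The log2 fold changes of the 14 lower genes named here were negative under each of the 22 alternatives run. With single libraries left out, edgeR called 1 member without SLIT2+APAP 1, 0 without SLIT2+APAP 2, 8 without control 1 and 7 without control 2. Over all genes the calls in these fits were 177, 21, 972 and 982, against 2351 with all libraries, so they fell across the whole table. Without SLIT2+APAP 2, 3093 genes had an unadjusted p under 0.05.

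The 15 genes differed little from the other 60 subunits in what the annotation gives. Their median transcript length was 765 bases, against 870 in the others, with a GC content of 50.6% and 51.1% and a median of 5 and 4 exons. Of the 11 with a promoter at hand, 4 held the NRF-1 letters, 3 the ETS letters, 2 the ERR letters and none the YY1 letters. In the other 61 genes with a promoter the counts were 13, 14, 0 and 5 in the same order. With so few promoters these counts are only a description.

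The second comparison asked what SLIT2 did without APAP. SLIT2 livers had less RNA than control livers of 82 of the 90 genes and more of 1. Of all genes, 27.6% were called lower and 27.3% higher in edgeR's test. The median log2 fold change was -2.83 over the family and 0.00 over all genes. All 4 subunits of complex II fell, as did all 8 of complex III, all 11 of complex IV and all 15 of complex V, with median log2 fold changes of -3.21, -2.92, -3.91 and -3.31. The complex I core fell less (median -1.32, 6 of 7 called) than its accessory subunits (-2.69, 26 of 29), as a comparison of medians without a test.

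Complex IV held the deepest falls. Ndufa4 had 14.2 and 6.64 CPM in SLIT2 and 504.0 and 382.0 CPM in control (log2 fold change -5.41 ± 0.43, adjusted p = 0.000103, edgeR). Cox4i1 had 14.9 and 6.64 CPM in SLIT2 and 366.0 and 404.0 CPM in control (log2 -5.16 ± 0.43, adjusted p = 0.000109, edgeR). These levels were far apart, and the SLIT2 libraries differed from each other by a larger ratio than those of control.

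In complex I the accessory subunit Ndufa1, which is X-linked, had 4.35 and 2.68 CPM in SLIT2 and 119.8 and 111.0 CPM in control (log2 -5.03 ± 0.31, adjusted p = 9.83e-05, edgeR). In APAP-treated liver the same gene had 91.7 and 74.9 CPM with SLIT2 and 112.0 and 94.7 CPM without it (log2 -0.31, not called). Ndufa1 therefore combined one of the deepest falls without APAP with a small, uncalled difference under APAP.

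In ATP synthase, Atp5l (log2 -4.58) and Atp5g3 (log2 -4.50) fell most, and Atp5d (log2 -1.36) and Atp5h (log2 -1.42) least. Atp5d had 151.0 and 119.0 CPM in SLIT2 and 341.0 and 353.0 CPM in control, while Atp5l had 8.99 and 6.74 CPM in SLIT2 and 211.0 and 165.0 CPM in control. Subunits needed in fixed number in the same enzyme were thus unequally reduced.

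The 7 genes that edgeR did not call were Ndufa10 (log2 -0.33), Ndufa12 (-0.27), Ndufb4 (-0.65), Ndufs8 (-0.45), Ndufaf4 (-0.49), Atp5s (-0.43) and the scarcely detected Cox6b2. Ndufa10 had 116.0 and 79.8 CPM in SLIT2 and 112.0 and 134.0 CPM in control, so its groups overlapped. Ndufa4l2, a relative of Ndufa4 known as a target of hypoxia-inducible factor, was the single gene that rose. It had 3.57 and 3.1 CPM in SLIT2 and 1.32 and 1.85 CPM in control (log2 1.07 ± 0.34, adjusted p = 0.0286, edgeR).

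The other genome moved the other way. All 13 mitochondrially encoded protein genes rose with SLIT2 relative to control (median log2 1.83), beside the fall of 70 of the 74 nuclear subunits. Many other abundant genes also fell. Of the 1921 genes at 50 CPM or more in control, 70.9% were called lower (median log2 -1.56), and of the 10% of genes with the highest control level, which held 72 of the 74 subunits, 72.3% were. The 10% of genes with the shortest transcripts, which held 43 of the 74, had a median of -0.29, against 0.67 in the 10% with the longest.

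Markers of cell types moved in both directions. Lower were 7 of 8 hepatocyte markers (median log2 -2.31), 6 of 8 macrophage markers (-1.81), 5 of 6 erythroid markers (-2.22), 12 of 12 skeletal muscle markers and 3 of 6 endothelial markers, of which 1 was higher (-0.77). Higher were 3 of 7 tested T, B and NK cell markers (median log2 1.44), 2 of 7 neutrophil markers (0.56) and 2 of 3 tested cardiac muscle markers, with none of these lower. Of all genes, 27.6% were called lower and 27.3% higher, and the neutrophil count was near the latter share. These directions depended on the scaling. As a share of counts other than the mitochondrially encoded, macrophage markers took 0.0124% and 0.0147% in SLIT2 and 0.0106% and 0.0149% in control. Endothelial markers took 0.0131% and 0.0113% in SLIT2 and 0.00554% and 0.00669% in control. The hepatocyte, erythroid and skeletal muscle sums stayed lower in both SLIT2 libraries than in both control libraries. The part of level, length, mitochondrial share and cell make-up in the fall of the respiratory chain was not tested. With offsets that removed each library's trend with transcript length, the family's median was -1.43 and that of all genes 0.35. With library totals that left out the mitochondrially encoded genes it was -1.47, against 1.42 over all genes, and 63 genes were called lower and 8 higher.

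As a share of the counts of other genes, the family took 0.799% and 0.585% in SLIT2 and 1.63% and 1.74% in control. Complex IV took 0.118% and 0.0765% in SLIT2 and 0.350% and 0.374% in control. The complex I assembly factors took 0.0187% and 0.0181% in SLIT2 and 0.0137% and 0.0157% in control. On this scale the sums of the family and of complex IV were lower in both SLIT2 libraries than in both control libraries, and the sum of the assembly factors was higher. The median log2 fold change of all genes was also positive with such totals, as given above, so a higher share is not particular to these genes.

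Assembly factors are chaperones and enzymes that build complex I without staying in it, and they were made at far lower levels. Per kilobase of transcript, their control levels ran from 5.06 CPM (Ndufaf5) to 20.5 CPM (Ndufaf2), while subunits ran from 18.4 CPM (Ndufa12) to 726 CPM (Ndufa4). With SLIT2 relative to control, 7 of 8 fell, with a median log2 fold change of -1.23. Ndufaf3 had 2.36 and 4.09 CPM in SLIT2 and 12 and 15 CPM in control, and fell most (log2 -2.07, adjusted p = 0.00269, edgeR). Ndufaf1, which works on the membrane arm, had 5.99 and 5.27 CPM in SLIT2 and 20.6 and 22.1 CPM in control (log2 -1.92). Both genes had separate groups.

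Ndufaf6 fell least of the 7 (log2 -0.66, adjusted p = 0.0326, edgeR), and Ndufaf4, with 29.5 and 26.2 CPM in SLIT2 and 38.2 and 39.9 CPM in control, was not called. The direction of several assembly factors rested on the scaling. With library totals that left out the mitochondrially encoded genes, Ndufaf2, Ndufaf4, Ndufaf5, Ndufaf6, Ndufaf7 and Ndufaf8 had positive log2 fold changes between 0.05 and 0.87. All of these lay below the median of all genes on that scaling.

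The SLIT2 comparisons with and without APAP share no library, so their fold changes could be set against each other. Over the 74 subunits, log2 fold changes of SLIT2+APAP over APAP and SLIT2 over control had a Pearson correlation of 0.67 and a Spearman correlation of 0.65. Over all 16876 genes these were 0.38 and 0.39, and over the 1921 genes at 50 CPM or more 0.42 and 0.44. The correlations are across genes, which are not independent replicates. All 15 genes called lower with SLIT2 under APAP were also among the 82 called lower without it. As those 82 were out of 90 tested, almost any 15 of the genes would overlap in this way, so the overlap carries little information.

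**Figure D4:**
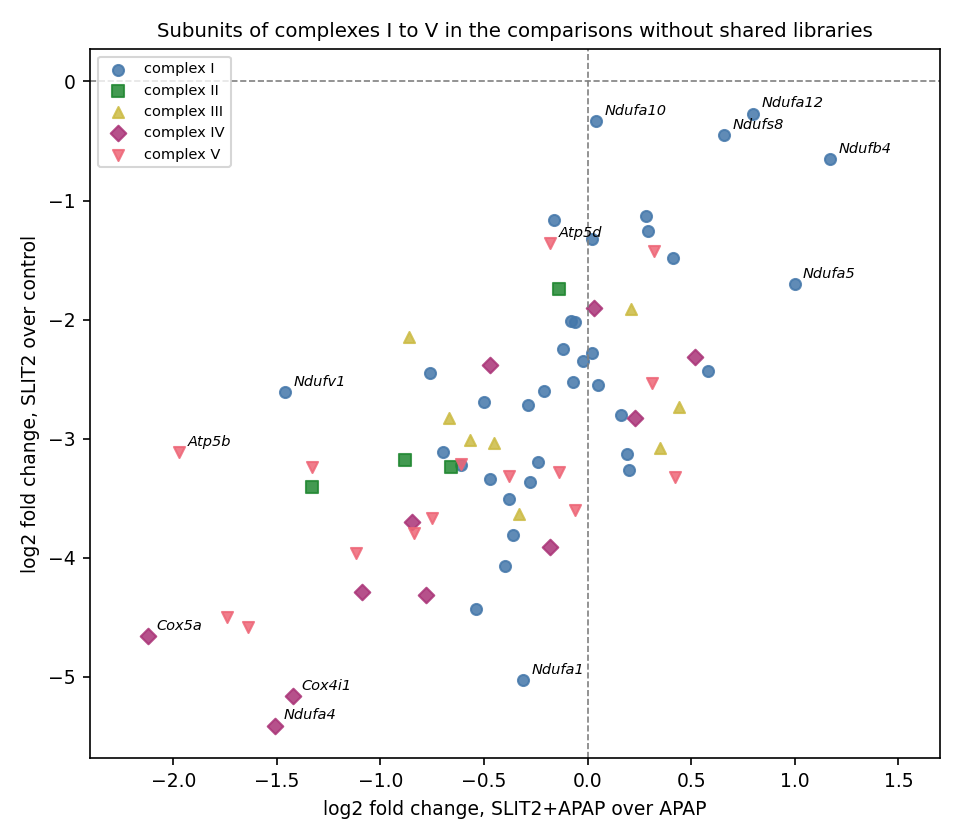
Each point is a subunit, placed by its log2 fold change of SLIT2+APAP over APAP (horizontal) and of SLIT2 over control (vertical), with colour for the complex. Cox5a lies farthest left at -2.12, Ndufb4 farthest right at 1.17, and Ndufa1 low but near the middle at -0.31.

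The third comparison set SLIT2+APAP against control. Fewer genes passed: 14 of 90 were lower and none was higher, while 2.16% of all genes were called in edgeR's test, 1.45% lower and 0.717% higher. At an unadjusted p under 0.05, 45 were lower and none higher, and DESeq2 called 31 lower. The family median was -0.55 and that of all genes 0.04. Over the genes at 50 CPM or more in control the median was -0.3, and 5.36% were called lower. Cox5a (41.8 and 33.7 CPM in SLIT2+APAP, 167.0 and 140.2 CPM in control) had a log2 fold change of -2.02, Atp5b -1.85, Ndufa4 -1.95, Cox7a2 -1.62 and Ndufv1 -1.52. Atp5f1 of the stator stalk had 119.0 and 98.3 CPM in SLIT2+APAP and 326.0 and 271.0 CPM in control (log2 -1.46, adjusted p = 0.0382, edgeR). Besides these, Atp5a1, Atp5g3, Atp5l, Atp5mpl, Cox7a2l and Sdhd were called, together with the muscle isoforms Cox6a2 and Cox8b. The SLIT2+APAP libraries also enter the first comparison, so the lists are not independent. The count was 1 without control 1 and 4 without control 2, where 19 and 150 of all genes were called, against 365 with all libraries. It was 0 without either SLIT2+APAP library or either SLIT2 library, where 2 to 4 of all genes were called, and 28 without APAP 3 and 27 without APAP 4, where 2558 and 2456 were.

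The fourth comparison asked what APAP alone did. Of the 90 genes, 2 were called lower in APAP than in control and none higher, while 0.788% of all genes were called in edgeR's test, 0.456% lower and 0.332% higher. At an unadjusted p under 0.05, 20 were lower and none higher, and DESeq2 called 9 lower. None of the 74 subunits was called by edgeR (13 were lower at an unadjusted p under 0.05), with log2 fold changes between -0.89 (Ndufb4) and 0.32 (Ndufv3) and a median of -0.27, against 0.05 for all genes. The 8 assembly factors all had negative values, with a median of -0.59, none of which passed the test. Subunits of complexes II, IV and V had medians of -0.15, 0.02 and -0.22.

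The 2 called genes were isoforms of complex IV that striated muscle makes in place of the liver forms. Cox6a2 had 0.0873 and 0.0486 CPM in APAP and 22.3 and 2.08 CPM in control (log2 -7.49 ± 1.28, adjusted p = 0.0451, edgeR). Cox8b had 0.0374 and 0.00971 CPM in APAP and 18.2 and 2.33 CPM in control (log2 -8.77 ± 1.17, adjusted p = 0.0272, edgeR). Cox7a1, the muscle partner of Cox7a2, had 1.7 and 1.02 CPM in APAP and 13.8 and 3.22 CPM in control (log2 -2.65, adjusted p = 0.077, edgeR). In all 3, control 1 was the highest library and control 2 the second highest.

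Skeletal muscle markers moved with these isoforms. Their summed level over 12 genes was 1.16 and 2.64 CPM in SLIT2+APAP, 4.54 and 0.826 CPM in APAP, 1.74 and 1.36 CPM in SLIT2, and 1215 and 137 CPM in control. Of the 12, 11 were called lower in APAP than in control, with a median log2 fold change of -9.85. Their part in the result was not tested. All 12 were detected in both control libraries, and Myh2 was at 0 in both APAP libraries. The liver forms Cox6a1 and Cox8a had log2 fold changes of 0.02 and 0.15 in the same comparison.

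**Figure D5:**
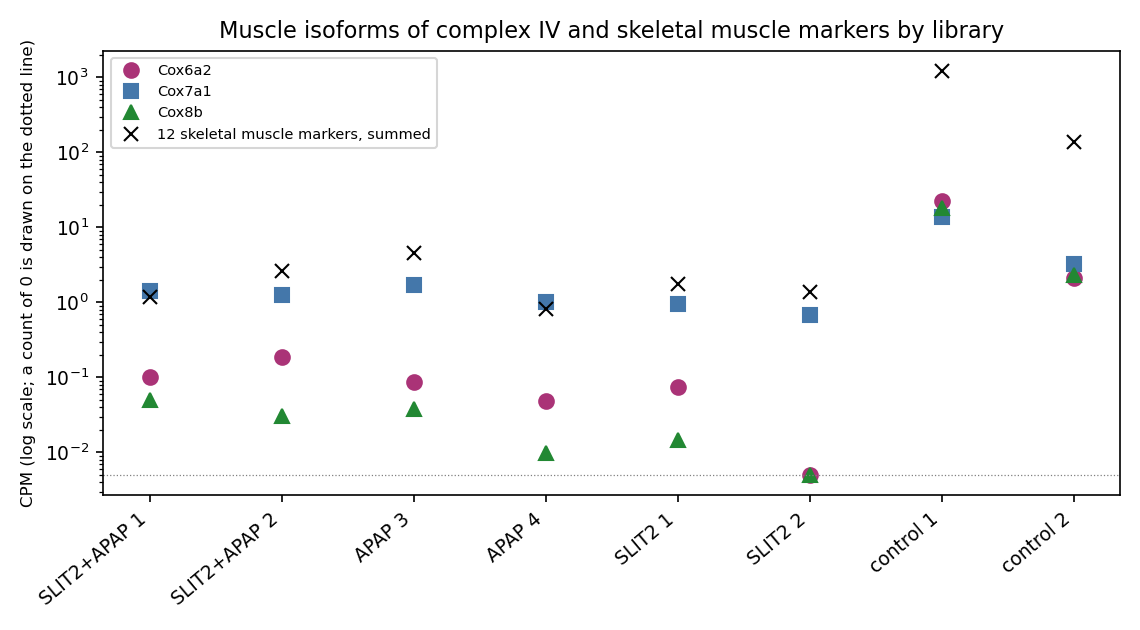
CPM on a log axis for the muscle isoforms of complex IV and the summed skeletal muscle markers in each library, with a count of 0 drawn on the dotted line. Control 1 and control 2 stand highest for every symbol, with summed markers of at most 4.54 CPM in the 6 treated libraries and of 1215 and 137 CPM in control.

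The last comparison was the interaction, the log2 effect of SLIT2 under APAP minus its effect without APAP. It was positive and called for 80 of the 90 genes and negative and called for none, while 15.5% of all genes were called positive and 13.3% negative in edgeR's test. Among the 80 were the muscle isoforms Cox6a2, Cox7a1 and Cox8b. They were low in every treated library, so their values rest on the control level. DESeq2 called 81 positive and none negative, and at an unadjusted p under 0.05 in edgeR there were 87 and 0. The median was 2.5 in the family and -0.09 over all genes. Over the 1921 genes at 50 CPM or more in control it was 1.33, so abundant genes in general shared part of this displacement. A positive value here means that SLIT2's log2 effect was higher under APAP, as a smaller fall or as a positive difference. With SLIT2 under APAP, 35 of the 90 genes had a positive log2 fold change, none of them called. By part, the medians were 1.34 in the complex I core, 2.45 in its accessory subunits, 1.19 in assembly factors (5 of 8 called), 2.19 in complex II, 2.51 in complex III, 3.05 in complex IV and 2.84 in complex V.

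Ndufa1 had the largest interaction of a subunit, at 4.72 ± 0.39 (adjusted p = 0.00313, edgeR). Among the 15 genes lower in SLIT2+APAP than in APAP, it was 1.14 for Atp5b, 1.15 for Ndufv1 and 1.26 for Cox7a2l, but 2.55 for Cox5a, 2.76 for Atp5g3, 2.94 for Atp5l and 3.90 for Ndufa4, all called in edgeR's test. The 10 genes not called by edgeR were Ndufa10, Ndufa12, Ndufs1, Ndufs8, Ndufaf2, Ndufaf4, Ndufaf6, Ndufa4l2, Cox6b2 and Atp5s. Every SLIT2 library enters the interaction, with the make-up described above. Its call count was 55 to 80 when single libraries were left out and 48 with length offsets.

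Ndufb4 needs a caution. The table also holds its processed pseudogene Ndufb4c, and how reads that match both were counted is not given in the sources used here. The count ratio of Ndufb4c to Ndufb4 was 0.354 and 0.349 in SLIT2+APAP, 0.679 and 0.655 in APAP, 0.0408 and 0.0283 in SLIT2, and 0.526 and 0.58 in control. It varied between groups, so the values of both genes are uncertain. Atp5l, Ndufab1 and Ndufa11 also have pseudogenes in the table, each with few counts.

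Genes of the pathway outside the name patterns behaved in part alike. Cyc1, the cytochrome c1 of complex III, had 89.6 and 74.6 CPM in SLIT2+APAP and 182.0 and 143.0 CPM in APAP (log2 -0.98, adjusted p = 0.0274, edgeR), and cytochrome c itself, Cycs, had 138.0 and 141.0 CPM in SLIT2+APAP and 93.3 and 85.5 CPM in APAP (log2 0.64, not called). Of 6 such subunits and carriers, 5 fell with SLIT2 relative to control and 1 with SLIT2+APAP relative to APAP. Of 40 further assembly factors, 23 fell and 1 rose with SLIT2 relative to control, where 27.6% of all genes were called lower and 27.3% higher. With SLIT2+APAP relative to APAP, Ecsit (log2 -2.47) and Atpif1 (log2 -0.91) fell and Pet100, a complex IV assembly factor, rose (log2 1.56). These 2 lower and 1 higher of 40 did not exceed the shares of all genes, 7.64% lower and 6.29% higher.

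By the correlation of log CPM over the 8 libraries with the family's mean profile, the nearest of 6260 other genes were Psmb7 (0.999), Myl6 (0.998), Alg5 (0.998), Psma6 (0.997) and Apool (0.997). Psmb7 and Psma6 encode proteasome subunits and Apool a protein of mitochondrial cristae. These correlations are a description over libraries that share their group structure.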

How the data were processed

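The 8 libraries were made from total liver RNA with a directional kit (MGIEasy), 2 in each of 4 groups, with the groups taken from the titles and treatments in the labels. The authors deposited 1 table of whole-number counts per Ensembl gene and library, not normalised. STAR 2.5.4, Cufflinks, Cuffdiff 2.2.1 and the build mm10 are named per the submitters' processing notes. The counting program, its strand setting, its treatment of multi-mapping reads and its annotation release are among the steps not given in the sources used here. Symbols, coordinates and transcript lengths came from GENCODE M21 on GRCm38, and 22341 of 23006 identifiers (97.1%) matched.

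Counts were tested with edgeR 4.0.16 in R 4.3.3 (filterByExpr, TMM scaling, robust quasi-likelihood fit with legacy = FALSE, 1 mean per group over all 8 libraries, 4 residual degrees of freedom). Benjamini-Hochberg adjustment ran over all 16876 genes tested, with calls at 0.05. CPM used TMM-scaled library sizes, and log2 fold changes carry standard errors. The members and lists were chosen with earlier results of these data known. Named genes were the core and catalytic subunits, the assembly factors and the tissue isoform pairs, plus the 3 called members with the smallest p per complex and direction at 5 CPM or more. The values of some genes are not reported here. Other names make up a count or were chosen after their values were seen. The fit was tested on simulated counts. Alternatives included DESeq2 1.42.0, other scalings, filters, offsets for GC content and length, and leaving out each library. Precision is limited by 2 libraries per group and total counts of 60.8 to 100.5 M (1 M is 1000000). Figures were drawn with matplotlib 3.10.9.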

Additional observations from a re-analysis of the deposited data

Results flagged for a closer look

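The effect of SLIT2 under APAP (SLIT2+APAP over APAP) and its effect without APAP (SLIT2 over control) differed by a test of the difference itself for 44 of the 52 named genes. Some of the 52 were named because this test called them, so the 44 cannot be read against a share of all genes. Each value below is that log2 difference, called at an adjusted p under 0.05 in edgeR's quasi-likelihood test. All were positive, and 15.5% of all genes tested were called positive. The median of this difference was 1.33 over the 1921 genes at 50 CPM or more in control. In complex I, the core subunits Ndufv1 and Ndufs7 had 1.15 and 1.41. Its accessory subunits had 2.33 (Ndufab1), 2.96 (Ndufb3), 3.08 (Ndufs5), 3.31 (Ndufc1) and 4.72 (Ndufa1). The assembly factors had 1.17 (Ndufaf7), 1.20 (Ndufaf8), 1.46 (Ndufaf5), 1.93 (Ndufaf1) and 2.11 (Ndufaf3).

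In complex II, the values were 1.60 for Sdhb, 2.08 for Sdhd, 2.30 for Sdha and 2.58 for Sdhc. In complex III they were 1.29 for Uqcrc1, 2.13 for Uqcrfs1, 2.16 for Uqcr10, 2.43 for Uqcrh, 2.59 for Uqcrc2 and 3.17 for Uqcrb. In complex IV they ran from 1.91 for Cox5b and 1.93 for Cox6b1 through 2.55 for Cox5a, 2.85 for Cox8a, 3.05 for Cox7b, 3.21 for Cox7a2, 3.53 for Cox6a1 and 3.73 for Cox4i1 to 3.90 for Ndufa4. The related Cox7a2l had 1.26.

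In ATP synthase they were 1.14 for Atp5b, 1.91 for Atp5a1, 2.60 for Atp5g1, 2.76 for Atp5g3, 2.84 for Atp5mpl, 2.93 for Atp5k, 2.94 for both Atp5c1 and Atp5l, and 3.54 for Atp5j2. The muscle isoforms had 3.35 (Cox7a1), 9.30 (Cox6a2) and 10.87 (Cox8b). All complex IV isoforms of other tissues together summed to at most 1.92 CPM in the treated libraries and to 54.7 and 7.89 CPM in control. With every treated group so low, these 3 values rest on the control level and cannot show that the effect of SLIT2 differed. Skeletal muscle markers summed to at most 4.54 CPM in the treated libraries and to 1215 and 137 CPM in control. The part of the skeletal muscle markers was not tested.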

How the results depend on the processing

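Counts of called genes are of the members tested, in the order of the report. For SLIT2+APAP against APAP (15 called) the count was 9 with library totals only and 0 with only the 4 libraries compared, where edgeR called 1 of all genes, 3915 had an unadjusted p under 0.05 and DESeq2 on all libraries called 21 members. Leaving out single libraries gave 0 to 20. The median (-0.14) was -0.22 to -0.06 without single libraries and 0.31 with library totals without the mitochondrially encoded genes. For SLIT2 against control the count was 78 to 86 without single libraries and 85 with a replicate block. The median (-2.83) was -3.14 to -2.63 without single libraries, -2.29 at 10 CPM or more in 2 libraries, -2.42 with GC offsets, -1.43 with length offsets and -1.47 with totals without the mitochondrially encoded genes.

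For SLIT2+APAP against control (14 called) the count was 4 with library totals only, 31 with DESeq2, 49 with only the libraries compared, 0 without the SLIT2 libraries, 32 with a replicate block and 0 to 28 without single libraries. The median (-0.55) was -0.61 to -0.45 without single libraries, -0.24 with library totals and -0.03 with totals without the mitochondrially encoded genes. For APAP against control (2 called) the count was 0 at 10 CPM or more, 9 with DESeq2, 1 with the legacy edgeR fit, 0 with only the libraries compared, 0 without the SLIT2 libraries, 1 with GC offsets and 0 to 8 without single libraries, and the median ran from -0.35 to -0.28 without single libraries. For the interaction (80 called) the count was 48 with length offsets and 55 to 80 without single libraries. Its median (2.5) was 2.30 to 2.87 without single libraries, 1.96 at 10 CPM or more, 2.25 with GC offsets, 1.15 with length offsets and 1.53 with totals without the mitochondrially encoded genes. The causes were not tested.

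Signs turned for some genes. With length offsets, SLIT2 against control gave 0.55 for Ndufaf2, 0.67 for Ndufaf6, 0.33 for Ndufaf8 and 0.30 for Ndufs7, and the interaction gave -0.36 for Ndufaf8 and 0 for Uqcr10. With totals without the mitochondrially encoded genes, SLIT2 against control gave 0.19 for Ndufaf2, 0.87 for Ndufaf4, 0.06 for Ndufaf5, 0.69 for Ndufaf6, 0.32 for Ndufaf7, 0.05 for Ndufaf8, 0.22 for Ndufs1 and 0.22 for Ndufs7. The same totals moved the median of all genes to 1.42 in that comparison. Same-numbered libraries of control, SLIT2 and SLIT2+APAP showed no strong common shift, as their deviations from the group means correlated at 0.07, -0.07 and -0.01. With so few libraries this cannot exclude that they were paired. With 2 libraries per group, small differences were beyond the reach of these tests.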

Other observations

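Regulators of mitochondrial gene expression moved in both directions with SLIT2 relative to control. The coactivators Ppargc1b (log2 4.13) and Ppargc1a (log2 1.22) and the transcription factor Nrf1 (log2 1.11) rose, while the mitochondrial transcription factors Tfam (log2 -2.02), Tfb1m (-1.78) and Tfb2m (-1.16) and the nuclear factors Yy1 (-1.81) and Gabpa (-1.74) fell. With 8 of 14 listed regulators called in edgeR's test, their share was near the 54.9% of all genes called in that comparison. Ppargc1b had 65.0 and 56.6 CPM in SLIT2 and 3.21 and 3.71 CPM in control, and it had 8.21 and 9.39 CPM in SLIT2+APAP and 18.2 and 2.52 CPM in APAP. In SLIT2+APAP relative to APAP, 1 of the 14 fell, Pprc1 (log2 -1.70), near the 7.64% of all genes called lower there. Of 12 genes for coenzyme Q, the lipid that carries electrons to complex III, 7 fell and 1, Pdss2, rose with SLIT2 relative to control, where 27.6% of all genes were called lower and 27.3% higher. In SLIT2+APAP relative to APAP only Coq7 of these 12 was called (log2 -1.13), where 13.9% of all genes were called in either direction.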
